A study of Mus musculus with 2 samples.

Results

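The potassium channel genes described here are the 89 gene symbols, of 19070 listed, that are made of Kcn, further letters and a number, leaving out Kcnj8 and Kcnj10. They comprise 30 voltage-gated channel genes, 10 silent voltage-gated subunits that work only inside a channel with other subunits, 13 inward rectifiers, 13 2-pore-domain leak channels, 8 genes of the family named for channels gated by calcium or sodium, and 15 auxiliary subunits. Their transcripts were counted as unique molecular identifiers (UMIs) in 16 µm squares, called bins, of 2 coronal brain sections measured with Visium HD, a spatial assay that reads probes hybridised to fixed RNA. One mouse gave the section taken 3 days after controlled cortical impact (CCI) and another the section taken 28 days after it. In CCI a piston strikes the exposed brain, here above the right parietal lobe. Both animals were C57Bl6 males, listed as 3 months old, and their brains had been fixed by perfusion and embedded in paraffin. Neither section came from a sham-operated mouse, so each injured side was compared with the opposite side of its own section. With 1 section per time no test across animals was possible. Differences are therefore given as log2 ratios of CPM, UMIs scaled to the total of each area, with exact 95% intervals that cover counting error only, and a difference of at least 2-fold is called as a matter of size.

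Potassium channels let potassium leave the cell, set the resting potential and end the action potential, and which of them a neuron makes shapes how fast and how regularly it can fire. Voltage-gated channels are tetramers whose gating is changed by auxiliary subunits, inward rectifiers and 2-pore-domain channels carry resting currents, and glia, choroid plexus epithelium and immune cells use their own sets. In the injured brain, potassium released by damaged neurons has to be cleared from the extracellular space, which makes the channels of glia and neurons a recurring subject of trauma research.

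The 3-day section had 121967 bins over tissue with a median of 836 UMIs, and the 28-day section 105589 bins with a median of 596 UMIs. After bins under 100 UMIs were left out, 119617 and 103316 bins remained. The injured side lay at array columns under 130 at 3 days, a strip 2.08 mm wide, and under 240 at 28 days, 3.84 mm wide, so far lateral cortex of the injured side was outside the 3-day array. The sections shared 84781 array positions under tissue, and they came from different mice and planes. The channel genes held 608269 UMIs at 3 days (0.504% of all) and 411557 at 28 days (0.499%), and 84.8% and 79.6% of the bins had at least 1 of them. Of the 89 genes, 72 had at least 200 UMIs in both sections, and 11 had under 50 in both (Kcna7, Kcna10, Kcne1, Kcne3, Kcnj1, Kcnj15, Kcnk15, Kcnk16, Kcnk18, Kcnmb3 and Kcnv2). A bin can hold parts of several cells, so fewer cells of a type and less RNA per cell cannot be told apart in any value below.

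Anatomy was read first, on the opposite side. Bins were assigned to 15 regions by marker genes of the 5 by 5 bins around them, and 67 channel genes had at least 200 UMIs there in each section. Of these, 38 were at least 2-fold higher than in the rest of the opposite side, in both sections, in at least 1 region, beside 34.4% of all genes tested, and 27 of them in exactly 1 region. The region-by-region shares of all 11816 genes tested are given beside the counts that follow. The names of 10 regions passed a check on marker genes that were not used to assign bins. The other 5 are called by their assigning genes, since at least 1 of their check genes failed or the bins lay in several patches.

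Kcnc2 and Kcnj12 led the thalamic relay nuclei by ratio, and Kcna5, Kcnab1 and Kcnh4 the striatum. In the thalamic relay nuclei 6 channel genes were at least 2-fold higher in both sections, beside 2.75% of all genes, and 20 were at least 2-fold lower, beside 8.96%. Kcnc2, which lies on chr10:112269898-112466304 of GRCm38.p6 and encodes a fast-closing channel that lets neurons fire at high rates, had 640.2 CPM in the relay nuclei against 93.3 CPM elsewhere at 3 days, and 669.4 against 118.8 CPM at 28 days. The log2 differences were 2.78 and 2.49. Kcnj12, a strong inward rectifier, had 146.1 against 30.0 CPM and 133.8 against 29.6 CPM, differences of 2.29 and 2.18. Kcnip4, an auxiliary subunit of A-type channels, was higher by 1.73 and 1.49, the calcium-activated channel gene Kcnn3 by 1.41 and 1.28, and the G-protein-gated rectifier gene Kcnj9 by 1.03 and 1.17. Kcnv1, a silent subunit of cortical neurons, and Kcnj4, a rectifier of forebrain neurons, were the lowest there, at -6.71 and -5.62 and at -5.88 and -6.02. In the midline thalamus 4 channel genes were higher (1.54% of all genes) and 14 lower (4.05%), the former including Kcnj12 at 1.60 and 1.33 and Kcnc2.

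In the striatum 9 channel genes were at least 2-fold higher (2.79% of all genes) and 20 lower (6.84%). Kcnab1, which encodes a cytoplasmic subunit that makes some channels inactivate, had 575.2 against 112.8 CPM at 3 days and 760.2 against 134.1 CPM at 28 days, differences of 2.35 and 2.50. Its list of companions there held A-type channel genes and their partners, Kcna4 (1.66 and 2.15), Kcnd2 (1.13 and 1.07) and Kcnip2 (1.91 and 2.36), and inward rectifiers, Kcnj2 (1.90 and 2.09) and Kcnj4 (1.35 and 1.81). Kcna5 was the highest by ratio, at 3.00 and 3.16.

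In bins led by Cux2, Lamp5 and Rasgrf2, which mark upper cortical layers, the channel genes together reached 0.739% of UMIs at 3 days and 0.718% at 28 days, against 0.358% and 0.331% in white matter. Here 9 were at least 2-fold higher (1.35% of all genes) and 8 lower (8.7%). They included the ether-a-go-go type genes Kcnh7, at 437.6 against 136.5 CPM and 421.3 against 125.6 CPM (1.68 and 1.75), Kcnh4 (2.28 and 2.21) and Kcnh3 (1.49 and 1.78). The silent subunits Kcnv1 (1.47 and 2.12) and Kcns1 (1.64 and 1.67) and the M-type channel gene Kcnq5 (1.61 and 1.62) were high in the same bins. In bins led by Fezf2, Etv1 and Deptor only the silent subunit Kcng1 passed in both sections, at 2.44 and 2.08 (0.415% of all genes), and 7 were lower (6.4%). In bins led by Hs3st4, Syt6 and Tle4 only the silent subunit Kcns3 did, at 1.29 and 1.18 (0.914%), and 3 were lower (4.15%).

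In the hippocampus, bins led by Prox1 and C1ql2 had 4 genes at least 2-fold higher (1.56% of all genes), with 6 lower (4.16%). The 4 included the silent subunit Kcng2, at 2.12 and 3.02, the silent subunit Kcns2, at 1.39 and 1.10, and Kcnj3, a G-protein-gated rectifier gene, at 1.03 and 1.33. In CA3 there were 2 (2.03%), Kcng2 at 2.52 and 2.10 and Kcng1 at 1.26 and 1.64, while 12 were lower (10.6%). In bins led by Fibcd1 and Wfs1 there were 2 (1.07%), Kcna5 and Kcnj4, the latter at 1.41 and 1.63, and 6 were lower (7.01%). In the habenula there were 2 (0.753%), the silent subunit Kcng4 at 2.88 and 4.74 and Kcnma1, which encodes the pore of the large-conductance calcium-activated channel, at 1.40 and 3.15, and 7 were lower (4.8%). Kcnma1 reached 671.4 CPM in the habenula at 3 days and 2078.8 CPM at 28 days, against 253.8 and 234.3 CPM elsewhere, so the size of that difference was not alike in the 2 sections. The habenula bins themselves were unlike, 698 with 3252 UMIs on average at 3 days and 343 with 1402 at 28 days. On the injured side outside the zone there were 0 and 405. Their lowest check gene was higher by a log2 difference of 2.79 and 6.22. In the hypothalamus only Kcna5 passed, at 1.36 and 1.34 (2.16%), and 16 were lower (4.31%).

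In the choroid plexus, ependyma, meninges and white matter 2 to 4 channel genes were high. In the choroid plexus 55 of the 67 were at least 2-fold lower (21.5% of all genes) and 4 were higher (11%). Kcnj13, the inward rectifier of the fluid-secreting epithelium, had 993.3 against 2.7 CPM at 3 days and 1069.7 against 2.8 CPM at 28 days, differences of 8.51 and 8.58. The plexus also held 1 channel gene below the count minimum of this comparison, Kcne2, a small subunit of epithelial channels. Its 3-day level was 295.1 CPM in the plexus and 0.109 CPM in the rest of the opposite side, and its 28-day levels were 271.2 and 0.428 CPM. In the ependyma Kcnmb1, a subunit of the large-conductance channel known from smooth muscle, had 344.6 against 3.1 CPM and 236.7 against 4.4 CPM (6.82 and 5.78), and Kcnj16, a rectifier that pairs with the glial rectifier of astrocytes, was higher by 1.52 and 1.81. There 3 channel genes were higher (10.5% of all genes) and 35 lower (7.19%). In the meninges 2 were higher (11.6%), Kcnj13 at 3.15 and 2.49 and Kcnmb1 at 2.13 and 3.04, and 34 were lower (10.8%). In white matter 23 were lower (5.4%) and 2 were higher (6.25%). These were the leak channel gene Kcnk13, with 42.4 against 9.0 CPM and 43.1 against 9.4 CPM (2.24 and 2.20), and Kcna6 (1.15 and 1.30).

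A set of bins led by Pvalb and Gad1, genes of fast-spiking inhibitory neurons, was added after the data were seen. It held 10 channel genes at least 2-fold higher in both sections (1.12% of all genes) and 7 lower (3.4%). The higher ones included Kcng4 (3.42 and 3.02), Kcns3 (3.18 and 2.50), the cytoplasmic subunit gene Kcnab3 (2.40 and 2.14), Kcnc1 (1.42 and 1.58) and the axonal channel gene Kcna1 (1.27 and 1.02). The heat map of genes by region shows all 15 regions, and the maps of 6 genes show the territories themselves. Of the 38 genes high in a region, 11 were high in more than 1, such as Kcna5 in the striatum, the hypothalamus and the bins led by Fibcd1 and Wfs1.

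**Figure D1:**
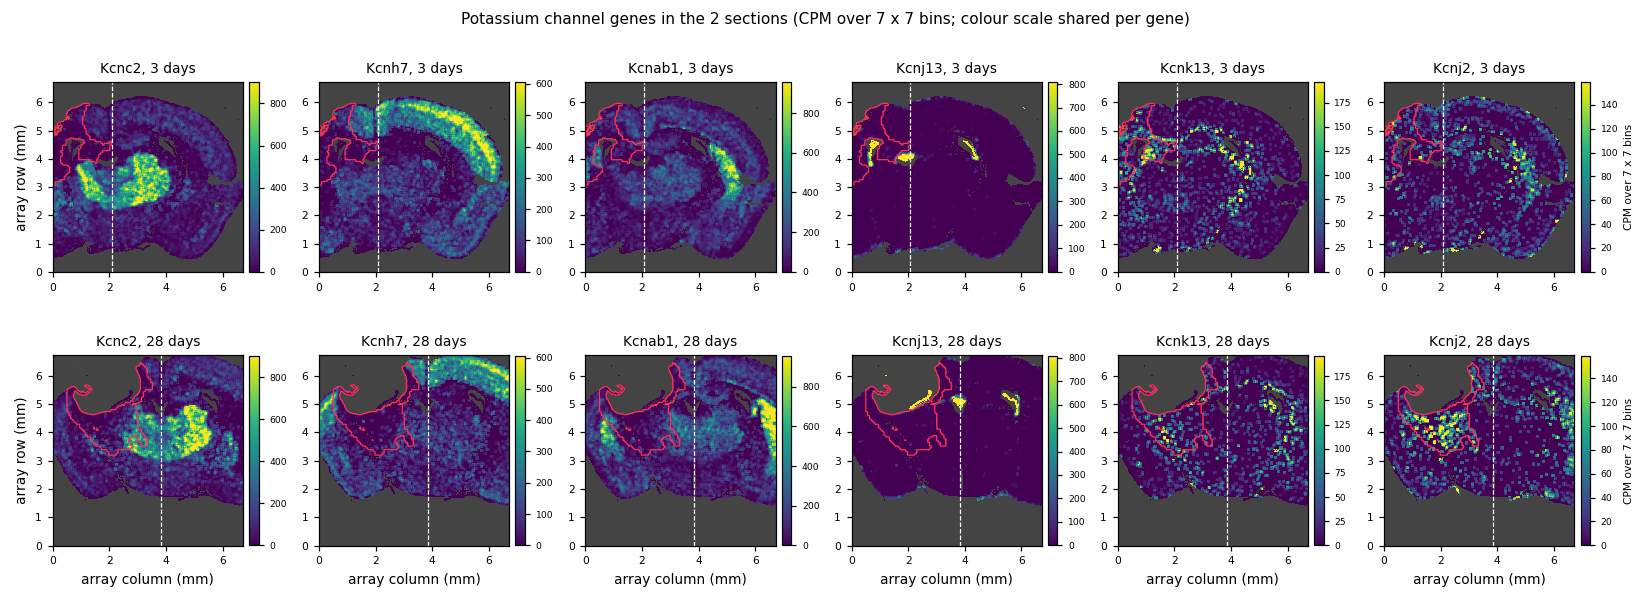
CPM of 6 potassium channel genes over 7 by 7 bins in the 3-day section (top) and the 28-day section (bottom), against array position in mm; the red line is the lesion zone, the dashed line the column that divides the sides, and the colour scale is shared by the 2 maps of a gene. Kcnc2 fills the thalamic relay nuclei, Kcnh7 the upper cortex, Kcnab1 the striatum and Kcnj13 the choroid plexus, while Kcnj2 at 28 days is seen in the striatum and in the zone.

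**Figure D2:**
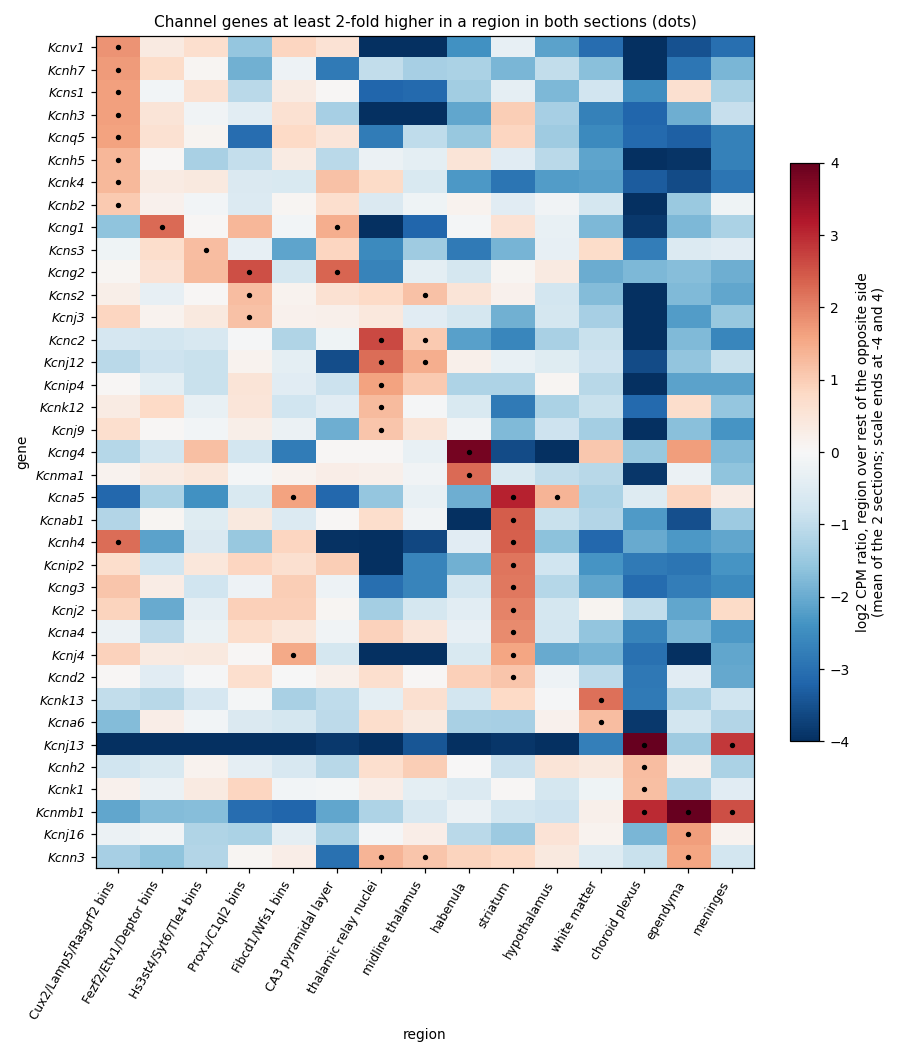
Mean over the 2 sections of the log2 CPM ratio between a region and the rest of the opposite side, for channel genes at least 2-fold higher in a region in both sections (dots); the colour scale ends at -4 and 4. Most rows hold 1 dot, and the choroid plexus column is blue for most genes.

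The promoters of 3 genes are printed because their genes stand for the main patterns, Kcnj13 for the choroid plexus, Kcnc1 for neurons and Kcnj2 for the higher level inside the 28-day lesion. Each run is the 250 bases before a start listed in the RefSeq promoter table on GRCm38.p6, 5′ to 3′ along the gene, with matches on either strand in capitals. Apart from its first base, the Kcnc1 run lies inside the annotated gene, which begins at base 46396219, so it is not the stretch before the gene's first base. The letters searched were GGGCGG, known as the core of the GC box, then TATAAA, the core of the TATA box, and finally CCAAT.

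Kcnj13, chr1:87394730-87394979, minus strand: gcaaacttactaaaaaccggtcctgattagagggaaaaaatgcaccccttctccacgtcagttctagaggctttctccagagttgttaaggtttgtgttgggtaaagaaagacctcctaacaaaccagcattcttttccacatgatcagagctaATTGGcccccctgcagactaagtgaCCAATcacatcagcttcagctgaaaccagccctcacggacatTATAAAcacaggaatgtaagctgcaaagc

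Kcnj2, chr11:111065914-111066163, plus strand: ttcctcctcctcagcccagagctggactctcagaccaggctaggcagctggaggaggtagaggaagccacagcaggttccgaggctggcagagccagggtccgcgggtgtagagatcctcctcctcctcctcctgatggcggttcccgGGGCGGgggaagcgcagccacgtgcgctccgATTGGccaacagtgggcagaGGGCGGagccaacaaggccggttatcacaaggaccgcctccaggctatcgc

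Kcnc1, chr7:46396218-46396467, plus strand: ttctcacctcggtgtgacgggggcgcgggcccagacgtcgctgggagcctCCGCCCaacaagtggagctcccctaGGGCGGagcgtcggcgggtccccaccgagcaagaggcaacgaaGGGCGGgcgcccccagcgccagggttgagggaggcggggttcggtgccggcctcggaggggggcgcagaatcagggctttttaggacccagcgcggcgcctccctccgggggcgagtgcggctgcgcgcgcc

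The Kcnj13 window was 45.2% G and C and held 1 TATAAA, 2 CCAAT and 0 GGGCGG. The Kcnc1 window was 74.4% G and C with 3 GGGCGG, and the Kcnj2 window 65.6% with 2 GGGCGG and 1 CCAAT. Over 32841 windows of this length GGGCGG occurred in 32.7%, TATAAA in 12.4% and CCAAT in 33.9%. Over the 86 windows of the 64 channel genes found in that table the shares were 45.3%, 3.49% and 29.1%, and the median G and C content was 58.6%, against 52.4% over all windows.

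The lesion zone was the patch of injured tissue with the highest share of 6 phagocyte genes, and it was compared with its reflection on the opposite side, the mirror zone. It covered 8384 bins at 3 days and 13559 bins at 28 days, against 7737 and 11747 mirror bins. A zone bin held 602 UMIs on average at 3 days, and a mirror bin 930. The 28-day averages were 528 and 628. At a minimum of 200 UMIs in zone and mirror together, 52 channel genes could be compared in each section. At 3 days 34 of the 52 were at least 2-fold lower in the zone, beside 8.66% of all 9781 genes, and 1 was higher, beside 11.2%. At 28 days 31 were lower, beside 7.62% of 10114 genes, and 1 was higher, beside 10.6%. The median ratio was -1.27 at 3 days and -1.14 at 28 days, where that of all genes was 0.06 and -0.07, and 25 of the 50 genes compared in both sections were at least 2-fold lower in both, beside 4.98% of all genes. Lists of cell markers moved in both directions. The median ratio of 10 neuronal markers was -1.52 and -1.28, that of 5 oligodendrocyte markers 1.44 and 0.11, that of 7 microglia and macrophage markers 1.90 and 4.40, and that of 5 astrocyte markers 0.58 and 1.09. The part of cell loss in the channel ratios was not tested.

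Kcnc2, a channel gene of fast-firing neurons, had the lowest ratio of the genes compared in both sections. At 3 days it had 101 UMIs in the zone and 1228 in the mirror zone, 20.0 against 170.6 CPM, a log2 ratio of -3.09 (95% interval -3.40 to -2.80). At 28 days the gene had 750 and 2702 UMIs, 104.8 against 366.0 CPM, a ratio of -1.80 (-1.92 to -1.69). Its intervals did not overlap between the sections. Kcnc1, a related gene of fast-firing neurons, had 44.4 against 180.8 CPM at 3 days (-2.02, -2.24 to -1.82) and 88.7 against 254.1 CPM at 28 days (-1.52, -1.65 to -1.39). Of the 19 voltage-gated channel genes compared, 13 were at least 2-fold lower at 3 days and 12 at 28 days, with medians of -1.17 and -1.11. The share of all genes to set beside this and each family count that follows is 8.66% lower and 11.2% higher at 3 days, and 7.62% lower and 10.6% higher at 28 days. The M-type channel gene Kcnq3 (-1.30 and -0.92) and the A-type gene Kcnd2 (-1.08 and -0.97) lay near that median, and Kcnd3 was at -0.68 and -1.10. Kcng4, a silent subunit high in the Pvalb and Gad1 bins, was at -0.54 at 28 days and had 4 against 114 UMIs at 3 days, below the count minimum.

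The axonal channels did not move as 1 group. Kcna1 and Kcna2 form the channel beside the node of Ranvier together with the subunit made by Kcnab2. Kcna2 had 38.6 against 134.0 CPM at 3 days (-1.79) and was at -1.21 at 28 days, and Kcnab2 had 117.9 against 436.0 CPM (-1.89) and was at -1.54. Kcna1, in contrast, was at -0.15 (-0.30 to -0.01) at 3 days and -0.69 at 28 days. Kcna6, the channel gene that was also high in white matter, was at 0.43 (0.27 to 0.59) and -0.01. Within white matter bins it was at -0.42 (-0.70 to -0.13) and -0.37, and with UMIs per bin its 3-day value was -0.20.

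Of 8 auxiliary subunits compared, 6 were at least 2-fold lower at 3 days and 7 at 28 days, with medians of -1.51 and -1.56. Kcnab3 had 23.2 against 121.3 CPM at 3 days, a ratio of -2.38 (-2.68 to -2.11), and -1.26 at 28 days. Kcnab1 had 78.4 against 265.9 CPM at 28 days (-1.76) and was at -0.50 at 3 days. The A-type channel partners Kcnip1 (-1.42 and -1.28), Kcnip2 (-1.39 and -1.59) and Kcnip4 (-1.96 and -1.73) were low in both sections, whereas the intervals of Kcnip3 (-0.01 and -0.17) spanned 0 in both. All 5 silent subunits compared at 3 days were at least 2-fold lower, the lowest being Kcns3, with 21 against 238 UMIs (-2.96, -3.71 to -2.35), and 4 of 6 were at 28 days. The exception in direction was Kcns1, which encodes a silent subunit that changes the gating of other channels. At 3 days 67 of its UMIs lay in the zone and 216 in the mirror zone (-1.17, -1.59 to -0.78). Its 28-day counts were 299 and 180, or 41.8 against 24.4 CPM (0.78, 0.51 to 1.05).

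Of 9 inward rectifiers compared at 3 days 6 were at least 2-fold lower, and of 8 at 28 days 6 were lower and 1 higher. Kcnj3, a G-protein-gated rectifier of neurons, had 27.1 against 137.8 CPM at 3 days (-2.34) and was at -1.51 at 28 days, and its partner Kcnj6 was at -1.77 and -1.41. Kcnj16 had 133 UMIs against 179 on day 3, 0.09 (-0.25 to 0.42), and 174 against 157 on day 28, 0.19 (-0.13 to 0.51), so neither interval left 0. Kcnj2, a rectifier of neurons, muscle and vessels, had 96 and 143 UMIs at 3 days, 19.0 against 19.9 CPM (-0.06, -0.45 to 0.32). At 28 days it had 299 and 149 UMIs, 41.8 against 20.2 CPM (1.05, 0.76 to 1.34), and was the 1 channel gene at least 2-fold higher there. That call ended with UMIs per bin (0.80), with the zone at the 95th percentile (0.87), with the axis 16 columns away (0.81) and outside white matter bins (0.81). Kcnj13, counted among the 6 lower at 3 days (-1.08), turned to 2.17 with the zone at the 95th percentile and 0.17 against the whole opposite side.

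Among the 2-pore-domain channels 1 of 5 was at least 2-fold lower at each time. Kcnk4, a mechanically gated leak channel gene, was at -2.41 at 3 days with 23 against 178 UMIs. Kcnk13, a leak channel gene known from microglia, had 219 against 123 UMIs at 3 days, 43.4 against 17.1 CPM (1.34, 1.02 to 1.68), the 1 higher channel gene in that section. It was below 2-fold with UMIs per bin (0.71) and with the zone at the 95th percentile (0.96). At 28 days Kcnk13 had 160 and 132 UMIs, 22.4 against 17.9 CPM (0.32, -0.02 to 0.67), an interval that reached 0. Of 6 channels gated by calcium or sodium, 3 were at least 2-fold lower at 3 days and 1 at 28 days. Kcnma1 was low in both, at -1.63 and -1.14, and Kcnt2, a sodium-activated channel gene, was at -1.79 and -0.71. Kcnt1, its close relative, had 78.9 against 53.2 CPM at 3 days (0.57, 0.36 to 0.77) and 296 against 522 UMIs at 28 days (-0.77, -0.98 to -0.57). Its 3-day value was -0.23 with the axis 16 columns away, -0.32 against the whole opposite side, and -0.06 with UMIs per bin, a scaling under which the median of all genes was -0.57. Kcnn3 was at 0.49 (0.14 to 0.84) and -0.75 (-1.03 to -0.48), and its 3-day value was -0.04 against the whole opposite side and -0.14 with UMIs per bin.

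Channels of immune cells other than Kcnk13 were too sparse for that comparison, and their values are given without a call. The zone was placed by phagocyte genes, so genes of macrophages lean to higher values in it by construction. The same limit applies to the 3-day call of Kcnk13, the gene known from microglia. Kcnn4, a calcium-activated channel gene of lymphocytes and macrophages, had 38 UMIs in the zone and 3 in its mirror on day 3, a ratio of 3.97 (2.52 to 6.52). At 28 days it had 47 against 5, or 3.15 (1.95 to 4.97). Kcnk6, a leak channel gene of macrophages, had 50 against 27 UMIs (1.39, 0.70 to 2.13) and 102 against 22 (2.23, 1.58 to 2.99). Kcna3, the voltage-gated channel gene of T cells, had 69 against 76 (0.37) and 87 against 64 (0.48, 0.01 to 0.98), and no T cell marker reached the count minimum in either section. Kcnq1, an epithelial and cardiac channel gene, had 23 UMIs against 1 on day 3 and 12 against 6 on day 28. Of the choroid plexus genes, Kcnj13 had 57 against 173 UMIs on day 3, enough to be compared, and 28 against 81 on day 28 (-1.47), and Kcne2 21 against 42 and 10 against 21. Choroid plexus epithelium markers were at a median of -1.64 and -2.26.

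**Figure D3:**
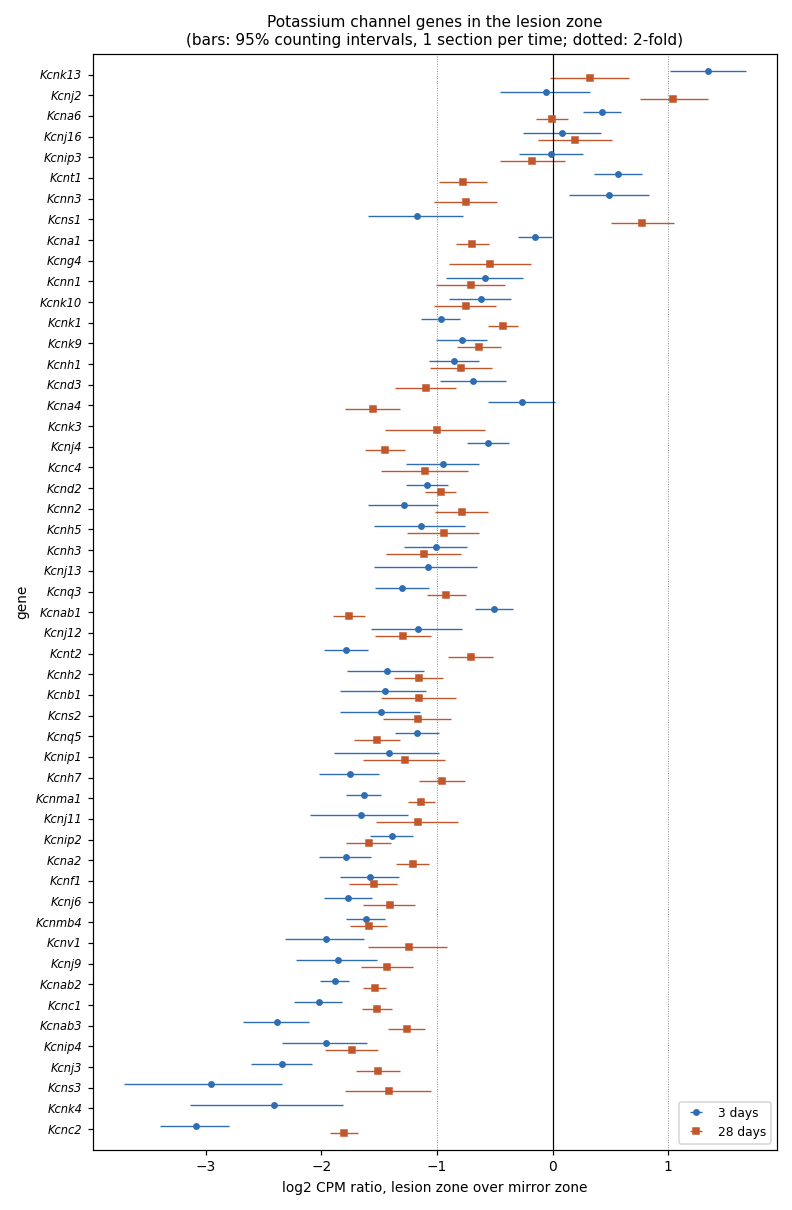
Log2 CPM ratio of the lesion zone over the mirror zone for channel genes that reached 200 UMIs in zone and mirror together at 3 days (blue circles) and at 28 days (red squares); bars are exact 95% counting intervals, 1 section per time, and dotted lines mark 2-fold. Most points lie left of 0, with Kcnk13 at 1.34 at 3 days and Kcnj2 at 1.05 at 28 days on the right.

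The zone and its mirror did not hold the same regions by marker call. A call rests on the share of marker UMIs in and around a bin, so lost neuronal RNA can by itself move a bin to white matter. Such a change and a true difference in tissue cannot be told apart here. White matter bins made up 59.0% of the 3-day zone and 28.5% of its mirror, and 47.5% and 34.5% at 28 days. Thalamic relay bins made up 0% and 9.81% at 3 days, and 9.34% and 28.3% at 28 days. Striatal bins made up 8.02% and 0% at 3 days, and 4.49% and 10.2% at 28 days. Bins led by Hs3st4, Syt6 and Tle4 made up 1.26% and 13.9% at 3 days, and 0.472% and 4.31% at 28 days. The ratios were therefore also taken within white matter bins and within all other bins, a split added after the data were seen. Among white matter bins 3 of 8 channel genes were at least 2-fold lower at 3 days (2.45% of all genes) and 7 of 13 at 28 days (5.04%), and 0 were higher (3.43% and 6.71%), with medians of -0.79 and -1.24 beside neuronal markers at -1.10 and -1.15. Among the other bins 21 of 49 were lower at 3 days (5.92%) and 26 of 50 at 28 days (6.75%), and 1 and 0 were higher (8.85% and 10.4%), with medians of -0.87 and -1.03 beside neuronal markers at -1.06 and -1.12.

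Several single genes differed between these sets of bins. Kcnk13 had 65.9 against 64.7 CPM within white matter bins at 3 days (0.02, -0.45 to 0.53) and -0.59 (-1.10 to -0.07) at 28 days, and it was at 0.86 and 0.62 in the other bins. Kcnt1 at 3 days had 128.3 against 54.9 CPM in the other bins (1.22, 1.0 to 1.45), while in white matter bins its interval spanned 0 (-0.45, -1.09 to 0.27). The other bins held 672 striatal bins in the zone and 0 in the mirror. In striatal bins of the zone against the opposite striatum Kcnt1 had 173.1 against 182.9 CPM (-0.07, -0.38 to 0.21). Kcnj2 at 28 days had 53.6 against 15.6 CPM in white matter bins (1.74, 1.07 to 2.56) and 50.3 against 9.41 CPM in thalamic relay bins (2.41, 1.60 to 3.26). Both ratios were above 0 but rested on under 200 UMIs, the count minimum used above, so no call is made. In striatal bins Kcnj2 had 18 against 77 UMIs (-0.66, -1.52 to 0.07). Kcns1 at 28 days was at 0.91 (0.32 to 1.57) in white matter bins, with 98 against 30 UMIs, and at 3.17 in relay bins, with 19 against 7. Kcnc2 was low in each, at -2.04 and -1.24 in white matter bins and -2.92 and -1.70 in the others, but in relay bins at 28 days it still had 461 against 757 CPM (-0.71).

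**Figure D4:**
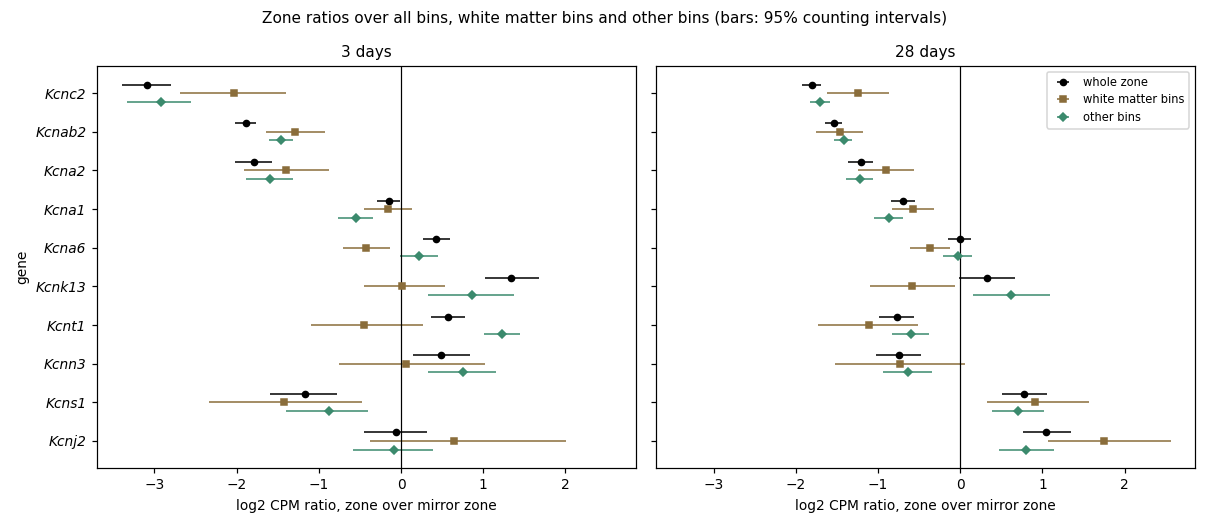
Log2 CPM ratio of zone over mirror zone for 10 channel genes over all bins (black), white matter bins (brown squares) and other bins (green diamonds) at 3 and 28 days, with exact 95% counting intervals. Kcnc2 and Kcnab2 stay below 0 in every set, while the 3-day value of Kcnk13 is 0.02 in white matter bins.

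Outside the zone, the injured and opposite sides were compared region by region. Taken over whole regions, 42 of 393 pairs of a channel gene and a region differed at least 2-fold at 3 days (10.7%), beside 2.48% of all pairs of a gene and a region, and 10 of 326 at 28 days (3.07%), beside 0.736%. Kcnab3 in the thalamic relay nuclei, for example, was at -1.57 and -1.40 and Kcna1 at -1.0 and -1.03, where 0.943% and 0.206% of all genes were at least 2-fold lower. Kcnip2 was at -2.60 at 3 days in the bins led by Cux2, Lamp5 and Rasgrf2, where 1.21% were, while at 28 days 0 of 42 channel genes were 2-fold lower in these bins, beside 0.296%. In these comparisons the 2 sides held different parts of a region. With only bins whose reflected position belonged to the same region, a restriction added after the data were seen, 1 of 117 pairs was past 2-fold at 3 days, beside 0.223% of all pairs, and 2 of 99 at 28 days, beside 0.31%. At 3 days no set led by cortical layer markers and no striatal set kept enough bins after matching. Kcnip2 in the Cux2, Lamp5 and Rasgrf2 bins was therefore not matched. The bins led by Hs3st4, Syt6 and Tle4 dropped out in both sections. Before matching they had 9 channel genes lower and 6 higher at 3 days. The counts before and after matching thus cover different regions. In the relay nuclei matched in this way 0 of 28 and 0 of 27 genes differed 2-fold, with medians of -0.09 and -0.10, while 0.164% and 0% of all genes were lower and 0.235% and 0.143% higher. Kcna1 was at -0.65 and -0.54.

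None of these 3 pairs was past 2-fold over whole regions. Kcnmb4, the neuronal subunit of the large-conductance channel, had 304 against 78 UMIs in white matter bins at 3 days, 168.9 against 50.0 CPM (1.75, 1.39 to 2.13; 0.237% of all genes). Kcnj4 in the hypothalamus at 28 days had 154 against 67 UMIs (1.05, 0.63 to 1.49; 0.163%). Kcnab1 in the striatum at 28 days had 353.6 against 718.0 CPM (-1.02, -1.36 to -0.69; 3.08%). Without matching they stood at 0.15, 0.78 and -0.55, so their size rests on which bins were compared.

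With the zone's own bins and matched positions, the thalamic relay nuclei at 28 days had 0 of 14 channel genes past 2-fold (0.174% of all genes lower, 3.25% higher), a median of -0.54 beside neuronal markers at -0.44, and Kcnab1 lowest at -0.94. White matter bins of the zone at 28 days had 3 of 7 lower (4.8%), among them Kcnc1 at -1.57, with 67.3 against 201.0 CPM, and Kcnab2 at -1.24, beside neuronal markers at -1.10. At 3 days such white matter bins had 0 of 2 past 2-fold (1.49% of all genes lower, 2.97% higher). Striatal bins of the zone at 28 days had 1 of 1 lower (24.3%), Kcnab1 at -1.82.

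Distance from the zone was measured over all tissue against mirror bins. Bands and mirror bins were not matched by region, and the part of region make-up in the band values was not tested. At 3 days 14 of 49 channel genes were at least 2-fold lower within 250 µm of the zone (3.14% of all genes) and 2 were higher (6.11%), and the median was -0.64 beside neuronal markers at -0.84. With the zone drawn at the 95th percentile the 14 became 1, a setting for which the share of all genes is not given. From 250 to 500 µm 0 were lower (0.788%) with a median of -0.23, from 500 to 1000 µm 0 were lower (0.155%) with -0.11, and beyond 1000 µm 1 was, Kcnmb1 (0.222%), with -0.04. At 28 days 0 were at least 2-fold lower in any band, including the nearest one (0.16% of all genes), and the medians were -0.16, -0.14, 0.02 and 0.08.

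Kcnc2 had the lowest value beside the 3-day zone, with 434 UMIs within 250 µm against 1500 in the mirror bins, 73.3 against 292.5 CPM (-2.0). It was at -0.70, -0.23 and -0.07 in the following bands. Kcnj9, a partner of Kcnj3, was at -1.87 within 250 µm and Kcnj3 at -1.56, followed by -0.58, -0.38 and -0.13 farther out. At 28 days Kcnc2 was at -0.63, -0.63, -0.45 and 0.38 in the 4 bands. The choroid plexus gene Kcnj13 had 1280 against 67 UMIs within 250 µm at 3 days (4.04) and Kcne2 427 against 36 (3.34), and at 28 days Kcnj13 had 692 against 2. The plexus of the injured side lay beside the zone, as the maps show, and counted 1001 bins outside the zone against 489 on the opposite side at 3 days, and 872 against 694 at 28 days. From 500 to 1000 µm at 28 days 4 channel genes were higher (0.983%), led by Kcnv1 at 2.34 and Kcnh3 at 1.47.

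Within the 3 cortical layer sets the reference was all bins of those sets on the opposite side. From the nearest band outward the 3-day medians there were -0.27, -0.09, -0.16 and -0.50. The 28-day medians were -0.16, -0.09, -0.34 and -0.24, so neither series rose steadily with distance. At 3 days 11 of 60 channel genes were at least 2-fold lower within 250 µm of the zone (2.84% of all genes), the lowest being Kcnip2 with 18 UMIs in 551 bins (-2.80), and 1 was higher (4.09%). The next bands had 9 and 7 of 60 lower (3.12% and 2.75%) and 3 and 4 higher (2.87% in each), and beyond 1000 µm 20 of 60 were lower (8.94%) and 7 higher (7.28%). With the zone at the 95th percentile the 11 became 5, again without a share of all genes. At 28 days 1 of 51 was lower within 250 µm, Kcnv1 at -1.04 (0.825%), while 6 of 51 were from 500 to 1000 µm (2.47%) and 5 of 51 beyond 1000 µm (3.57%), where 2 were higher (1.57%).

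**Figure D5:**
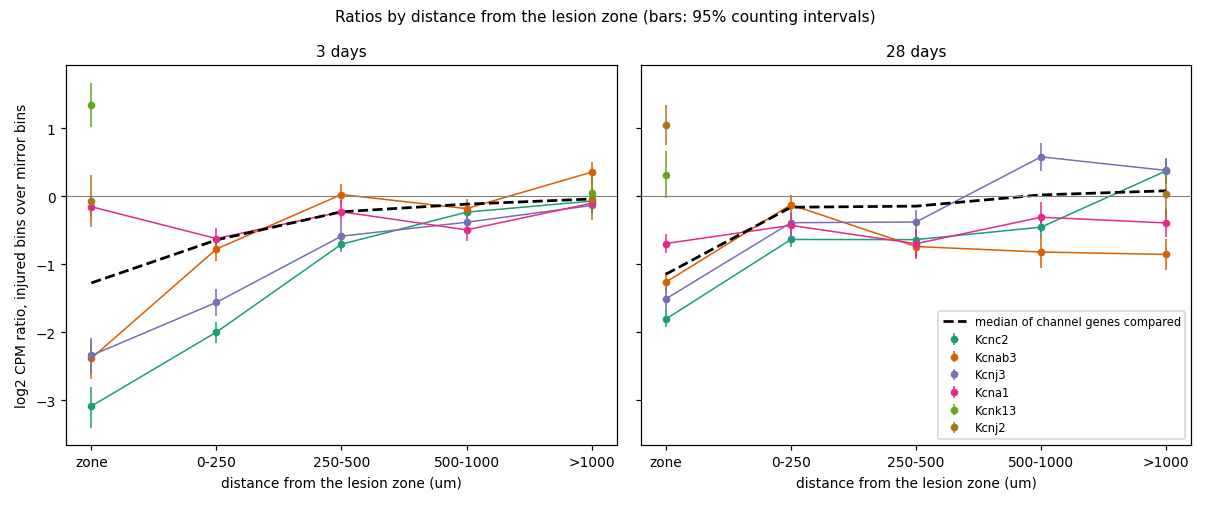
Log2 CPM ratio of injured over mirror bins for 6 channel genes in the lesion zone and in 4 bands of distance from it (µm), at 3 and 28 days; the dashed line is the median of the channel genes compared, bars are exact 95% counting intervals, and points with under 200 UMIs over both areas are not drawn. Over all tissue, not matched by region, the 3-day median climbs from -1.27 in the zone to -0.04 beyond 1000 µm. At 28 days it goes from -1.14 in the zone to -0.16 in the nearest band.

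Between the sections the zone ratios of 50 channel genes could be set side by side. With an interval of the difference off 0, the 28-day ratio was higher for 19 (19.1% of all genes) and lower for 10 (28%), and for 21 the interval spanned 0. Against the whole opposite side, where 70 channel genes could be compared in each section, the 10 became 22. The share of all genes was not taken with that reference, and the number compared in both sections is not given. The 22 are therefore not read as a result about the channel genes. A difference of at least 1 upward was found for 6 (4.21% of all genes), the largest for Kcns1 at 1.94 (1.47 to 2.42), then Kcns3 at 1.55, Kcnc2 at 1.28, Kcnab3 at 1.12, Kcnj2 at 1.11 and Kcnt2 at 1.08. A difference of at least 1 downward was found for 5 (3.34%), with Kcnt1 at -1.34 (-1.63 to -1.05), Kcna4 at -1.29, Kcnab1 at -1.26, Kcnn3 at -1.24 and Kcnk13 at -1.02. The time after injury cannot be told apart from the mouse, the section and its plane, and the zones and mirror zones differed in region calls as given above. Kcna4 and Kcnab1 were genes high in the striatum, which made up 8.02% of the 3-day zone and 0% of its mirror. At 28 days its shares were 4.49% and 10.2%. In striatal bins of the zone against the opposite striatum, Kcna4 was at -0.01 (-0.35 to 0.30) at 3 days and -1.01 (-1.52 to -0.57) at 28 days. Kcnab1 was at -0.77 (-0.98 to -0.57) and -1.04 (-1.30 to -0.80) there. The part of region make-up in the time differences was not tested.

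The 17 partners of potassium channels were a list of proteins that assemble with them or carry potassium with them. At 3 days 8 of the 17 were at least 2-fold lower in the zone and 0 higher, and at 28 days 7 were lower and 1 higher, with medians of -0.87 and -0.89, beside 8.66% and 7.62% of all genes lower and 11.2% and 10.6% higher. Slc12a5, the neuronal potassium-chloride exporter, was at -1.51 and -1.59 and Dpp6, a subunit of A-type channels, at -1.61 and -1.40. Others were not. Atp1b2, a pump subunit of glia, was at 0.39 and 1.18, and Slc12a2, a chloride importer of glia and epithelia, at 0.97 and 0.23.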

How the data were processed

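The authors deposited raw UMI counts per gene and 16 µm bin for each section, made per the labels with Space Ranger 4.0.1 on mm10, with no normalization. The probes are fixed, so a count depends on a gene's probes, and levels were not compared between genes. All else was computed with Python 3.11.15, numpy 2.4.6, pandas 2.3.3 and scipy 1.17.1 (figures: matplotlib 3.10.9).

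Bins under 100 UMIs were left out. The zone was made of 64 µm tiles whose smoothed share (5 by 5 tiles) of Lyz2, Cd68, Cd52, Ctsz, Laptm5 and Lgals3 passed the opposite side's 99th percentile, in a patch of at least 25 tiles, and was reflected across column 130 or 240. A bin belonged to the region whose markers had the highest (observed + 5)/(expected + 5) UMIs, if at least 2, and regions needed 200 bins. UMIs were summed per area and turned into CPM. Log2 ratios took 0.5 UMI as the pseudocount and have exact conditional binomial 95% intervals, and all genes that reached 200 UMIs in the areas compared were included. Intervals of differences between times used the delta method. Neighbouring bins are not independent, and no p-value was computed. Only the ratio and interval calculation was tried on simulated independent counts. Zone placement, region calls, reflection and dependence between bins were not covered by that simulation.

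Genes were named if among the 8 lowest or highest by zone ratio in a section, the first 3 of a region or of a side difference, of opposite sign in the 2 sections, or on a fixed list of channels of known cell types; others were chosen after their values were seen. The channel genes, lists and regions were chosen with earlier results of these data known. Alternatives were another scaling, count minimum, zone threshold, axis, reference and marker ratio. Kcnj8 and Kcnj10 are not analysed here, and a few genes and 1 marker set, counted in the totals, are not reported here.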

Additional observations from a re-analysis of the deposited data

Results flagged for a closer look

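The zone ratios of 3 channel genes had opposite signs in the 2 sections, with both intervals off 0. The difference was not tested across animals, since each time had 1 section. Kcnt1 was at 0.57 at 3 days and -0.77 at 28 days, and its 3-day value was below 0 with the axis 16 columns away, against the whole opposite side and within white matter bins, as well as with UMIs per bin, which lowered the median of all genes. Kcns1 was at -1.17 at 3 days and 0.78 at 28 days. Kcnn3 was at 0.49 at 3 days and -0.75 at 28 days, and its 3-day value was below 0 against the whole opposite side (-0.04) and with UMIs per bin.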

How the results depend on the processing

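Across the other settings for scaling, count minimum, zone, axis and reference, 32 to 43 channel genes were at least 2-fold lower in the zone at 3 days, of 47 to 70 compared. At 28 days 24 to 40 were lower, of 51 to 70 compared. The shares of all genes lower ran from 6.28% to 24.9% at 3 days and from 3.95% to 13.5% at 28 days, highest with UMIs per bin. Within white matter bins there were 3 and 7 (2.45% and 5.04% of all genes), and outside them 21 at 3 days (5.92%). The 1 higher gene at 3 days became 0 with UMIs per bin (4.86% of all genes), 2 with a minimum of 50 UMIs (15.5%), 3 with the zone at the 95th percentile (12.6%), 3 against the whole opposite side (16.6%) and 0 in white matter bins (3.43%). The 1 at 28 days became 0 with UMIs per bin (8.25% of all genes), 5 with a minimum of 50 UMIs (14.7%), 0 with the axis 16 columns away (10.1%), 3 against the whole opposite side (12.3%), 0 outside white matter bins (10.4%), and 0 within them (6.71%), where the gene, Kcnj2, was at 1.74 but under the 200-UMI minimum. With UMIs per bin the median of all genes moved to -0.57 and -0.32, and that of the channel genes to -1.90 and -1.40. Side differences at 3 days went from 42 of 393 pairs to 26 of 219 with a marker ratio of at least 3. With that ratio 10 of 326 pairs became 5 of 158 at 28 days. The shares of pairs were 10.7% and 11.9%, and 3.07% and 3.16%. They were 24 of 321 at 3 days with the added marker sets, and 1 of 117 and 2 of 99 with matched positions. Matched positions with zone bins included gave 2 of 123 and 5 of 116. The share of all pairs is not given for the marker ratio of 3, the added sets or the included zone bins. Those counts are therefore not read as a result about the channel genes. The matched counts at 3 days include no set led by cortical layer markers and no striatum, which kept too few bins. Within 250 µm at 3 days the 14 lower genes became 1 with the zone at the 95th percentile, and the 11 of the layer sets 5. The 1 of the layer sets at 28 days became 0 with that zone. The share of all genes is not given for these distance counts. The 10 genes lower at 28 days than at 3 days became 22 against the whole opposite side, where 70 could be compared in each section. The share of all genes and the number compared in both sections are not given there, so no reading is made. Signs turned at 3 days for Kcnt1 (-0.06 with UMIs per bin, -0.23 with the axis away, -0.32 against the whole opposite side), Kcnn3 (-0.14 with UMIs per bin, -0.04 against the whole opposite side) and Kcnj13 (2.17 at the 95th percentile, 0.17 against the whole opposite side). Of 1027 recomputed single-gene values 707 stayed within their interval. Values under the count minimum of a setting were not among them. Signs changed for 31, 12 of them with a first interval off 0, and the 7 just given are those of genes past 2-fold in that section or of opposite signs in the 2 sections. The causes of these shifts were not tested. No paired analysis was possible because each group had 1 section.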
